A study of Mus musculus with 51 samples.

Results

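RNA of p53 (gene Trp53) and of 9 genes that p53 is known to switch on was followed through every tumor and cell group of a mouse study of Uba1, the E1 enzyme that starts the ubiquitin cascade. The members were the rows whose gene symbol was Trp53, Mdm2, Cdkn1a, Ccng1, Phlda3, Zmat3, Btg2, Trp53inp1, Sesn1 or Gdf15, which made 10 of the 40077 genes in the table. The question put to them was whether Cdkn1a, which encodes the cyclin-dependent kinase inhibitor p21, moved together with the other targets or apart from them.

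The 51 libraries fell into 16 groups. Myc-CaP, a mouse prostate cancer line, was grown as tumors in male FVB mice, and B16-BL6, a mouse melanoma line, in female C57BL/6 mice, all aged 6 to 8 weeks and injected on both flanks, so that tumors of a group may share a mouse. Tumors carried a control guide RNA (3 B16-BL6 and 3 Myc-CaP), a guide against Uba1 (sgUba1, 4 and 7), an empty vector (3) or a CMV-driven Uba1 transgene (Uba1 OE, 4), or came from mice given vehicle (6) or the UBA1 inhibitor TAK-243 at 25 mg/kg, 2 times a week (5). Cultured Myc-CaP cells made up 8 groups of 2 libraries, control sgRNA or sgUba1 cells and untreated or TAK-243 cells (50 nM for 18 hours), each with and without interferon-γ (IFN-γ, 1 ng/mL). The sgUba1 sublines were grown from single cells and kept part of their Uba1, the guide behind each library is not given in its labels, and the labels do not say whether replicates were separate cultures or mice, so p-values measure the spread between these libraries.

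Uba1 itself was read first, in CPM (counts scaled to library size by TMM within each experiment). In B16-BL6 tumors it lay at 410, 455 and 414 CPM with the control guide and at 208, 220, 228 and 247 CPM with sgUba1. In Myc-CaP sgUba1 tumors replicates 1 to 3 held 197, 202 and 211 CPM against 320, 325 and 337 CPM in their controls, but replicates 4 to 7 held 373, 361, 368 and 383 CPM. The libraries labelled sgUba1 replicates 4 to 7 were therefore above every control, and the main values of that experiment are given with and without them. Uba1 OE tumors held 631 to 747 CPM against 278 to 310 CPM with the empty vector, and sgUba1 cells 283 to 295 CPM against 526 to 533 CPM. Library totals ran from 8651963 to 35693092 counts in tumors and from 12860844 to 38032284 in cells. The summed melanocyte markers were at 12500 to 16300 CPM in B16-BL6 tumors and at most 32.5 CPM in Myc-CaP tumors, while prostate epithelium markers were at 2.18 to 3.55 CPM and 1310 to 3690 CPM, so the prostate markers were near 0 in the melanoma tumors, although their tissue label also reads prostate tumor.

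p53 is a transcription factor that is kept scarce in unstressed cells because Mdm2, an E3 ubiquitin ligase, marks it for the proteasome with ubiquitin that passes through Uba1. When DNA damage or another stress frees p53, it binds paired half-sites in DNA and raises the RNA of genes for cell cycle arrest, repair and death, and of Mdm2 itself, which closes a feedback loop. Much of this control acts on the p53 protein, which RNA sequencing does not measure, and several of the targets answer to other factors as well.

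The stretches before the start sites are shown because the targets are grouped by p53 binding. RefSeq promoter windows (GRCm38.p6, 250 bases before to 50 after a start) were at hand for 8 of the 10 members in 11 windows, Zmat3 and Trp53inp1 having none. The p53 half-site, an element of 10 bases that is its own reverse complement, was searched once for both strands. It was taken as RRRCWWGYYY (R a purine, W A or T, Y a pyrimidine), and only exact matches counted. It was found in 5 of the 11 windows, those of 5 members, against 8.36% of all 32851 windows. A pair of such elements within 13 bases of each other stood in 0.0731% of all windows and, among the members, only in the upstream start of Cdkn1a, at -73 and -51 from the start. The 10 bases directly after the half-site at -51 differ from the pattern in their first base alone. They were not counted and stay in small letters. That region, chr17:29090729-29090968 on the plus strand, reads as follows with the half-sites in capitals.
Cdkn1a: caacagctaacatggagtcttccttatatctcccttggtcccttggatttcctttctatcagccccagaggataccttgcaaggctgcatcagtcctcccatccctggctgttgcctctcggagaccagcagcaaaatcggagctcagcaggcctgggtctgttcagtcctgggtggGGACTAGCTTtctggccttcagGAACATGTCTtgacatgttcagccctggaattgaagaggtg

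The other windows held a single half-site, shown in capitals with the 10 bases on either side. They lie at chr11:69580274-69580303 (plus strand, Trp53, -75), chr10:117710925-117710954 (minus, Mdm2, -186), chr11:40755452-40755481 (minus, Ccng1, -185) and chr10:41887256-41887285 (plus, the downstream start of Sesn1, -173).
Trp53: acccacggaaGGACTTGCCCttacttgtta
Mdm2: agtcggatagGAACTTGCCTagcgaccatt
Ccng1: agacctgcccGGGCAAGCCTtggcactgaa
Sesn1: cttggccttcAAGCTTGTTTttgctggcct

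Phlda3, Btg2, Gdf15, the downstream start of Cdkn1a and the upstream start of Sesn1 held no half-site in these windows, which says only that these letters are not there. A match is a description of the sequence and not a bound site. Among the members' exons in the GENCODE M21 annotation (GRCm38), only those of Cdkn1a (chr17:29090976-29100727, plus strand) overlapped another gene, an antisense transcript over 7.68% of their bases, and whether the counts used strand is not given in the sources used here.

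Levels between genes were compared in TPM, which corrects for transcript length. In untreated cells Trp53 was the most abundant member at 88.3 ± 2.36 TPM (SD, n = 2), followed by Ccng1 at 27.8 ± 0.729 and Mdm2 at 26.5 ± 1.04. Sesn1 (17.2 ± 1.45 TPM), Zmat3 (14.5 ± 0.771), Cdkn1a (14 ± 1.85) and Phlda3 (13.9 ± 1.64) came next. Btg2 at 5.52 ± 0.0478 TPM and Trp53inp1 at 0.830 ± 0.178 TPM were the lowest members with reads. In B16-BL6 control tumors the order was another, with Cdkn1a at 153 ± 14.7 TPM above Ccng1 at 86.3 ± 6.96 and Trp53 at 86.0 ± 4.17 (n = 3). Gdf15, a secreted stress cytokine, had 320 to 1247 counts in the B16-BL6 tumors but 0 to 15 counts in every Myc-CaP tumor and cell library, so it passed the filter on low counts in B16-BL6 tumors alone and 9 of the 10 members were tested elsewhere.

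Across all 16 groups, scaled together, Trp53 RNA was higher in every cell group than in any tumor group. It was highest in TAK-243 cells, at 225 ± 3.56 CPM with IFN-γ and 203 ± 7.13 CPM without (n = 2 each), each group separate from its neighbour in the order. The other cells followed, from control sgRNA with IFN-γ at 141 ± 4.06 CPM, untreated with IFN-γ at 137 ± 2.46, control sgRNA at 126 ± 2.51 and sgUba1 at 116 ± 2.96 down to untreated at 108 ± 2.15 and sgUba1 with IFN-γ at 108 ± 0.673 CPM. The first pair of these and the last pair overlapped. B16-BL6 tumors held 89.4 ± 0.995 CPM (control, n = 3) and 86.8 ± 4.66 CPM (sgUba1, n = 4). The 6 Myc-CaP tumor groups lay between 53.3 ± 7.29 CPM (sgUba1, n = 7) and 71.6 ± 13.7 CPM (Uba1 OE, n = 4), the sgUba1 mean being 59.8 ± 4.23 CPM without replicates 4 to 7 (n = 3), and the tumor groups from B16-BL6 down overlapped their neighbours throughout.

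Cdkn1a had another order. B16-BL6 tumors were at the top, at 161 ± 11.5 CPM with the control guide and 121 ± 28.2 CPM with sgUba1, the ranges overlapping. TAK-243 cells came next at 92.3 ± 1.36 CPM with IFN-γ and 79.1 ± 6 CPM without, separate from each other and from both neighbours. The Myc-CaP tumor groups, all overlapping, ran from 40.7 ± 5.23 CPM (empty vector) to 26.7 ± 12.2 CPM (control guide). The other cells were lower, from 22.5 ± 1.68 CPM (untreated with IFN-γ) through 18.5 ± 0.992 (control sgRNA), 17.4 ± 2.51 (untreated), 16.2 ± 0.360 (control sgRNA with IFN-γ) and 14.5 ± 0.055 (sgUba1 with IFN-γ) to 12.9 ± 1.19 CPM (sgUba1). Of these, control sgRNA overlapped untreated cells and untreated cells overlapped control sgRNA cells with IFN-γ, and the others stood apart from the next in order. The control guide tumors, from 14.4 to 38.8 CPM, overlapped the untreated cells with IFN-γ. Cdkn2a, whose product Arf restrains Mdm2, averaged 0.0103 CPM in B16-BL6 control tumors and 0.0475 CPM with sgUba1. Its group means were 60.8 to 70.8 CPM in Myc-CaP tumors and 88.5 to 114 CPM in cells. The part of this difference between the lines in the levels and changes of p53 targets was not tested.

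**Figure D1:**
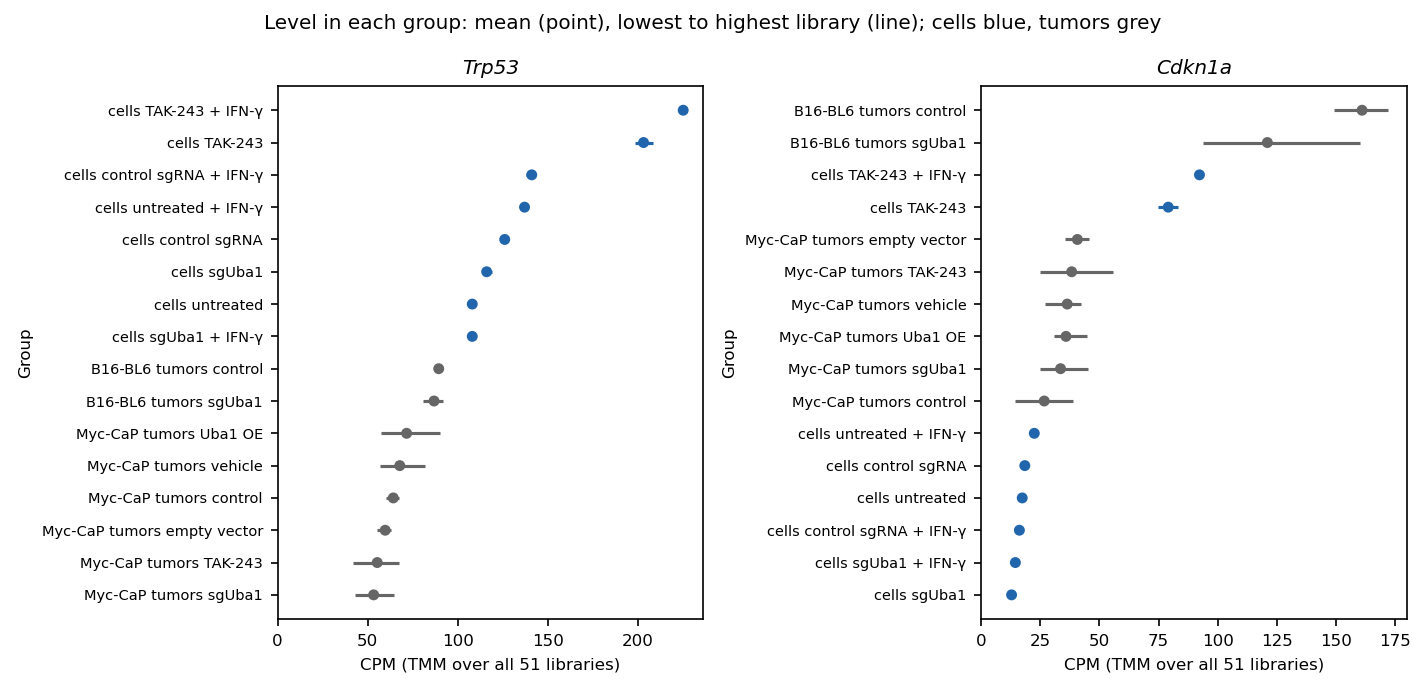
Level of Trp53 (left) and Cdkn1a (right) in each of the 16 groups, in CPM scaled by TMM over all 51 libraries. Points are group means and lines run from the lowest to the highest library. Trp53 is highest in TAK-243 cells, whereas Cdkn1a is highest in B16-BL6 tumors, with TAK-243 cells above all Myc-CaP tumor groups.

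Changes between groups are given as log2 fold changes from the quasi-likelihood test of edgeR, with p-values adjusted by Benjamini-Hochberg over all genes tested and called under 0.05. The heat map of members by comparison shows called members in 5 of the 6 cell comparisons and in none of the 4 in tumors.

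**Figure D2:**
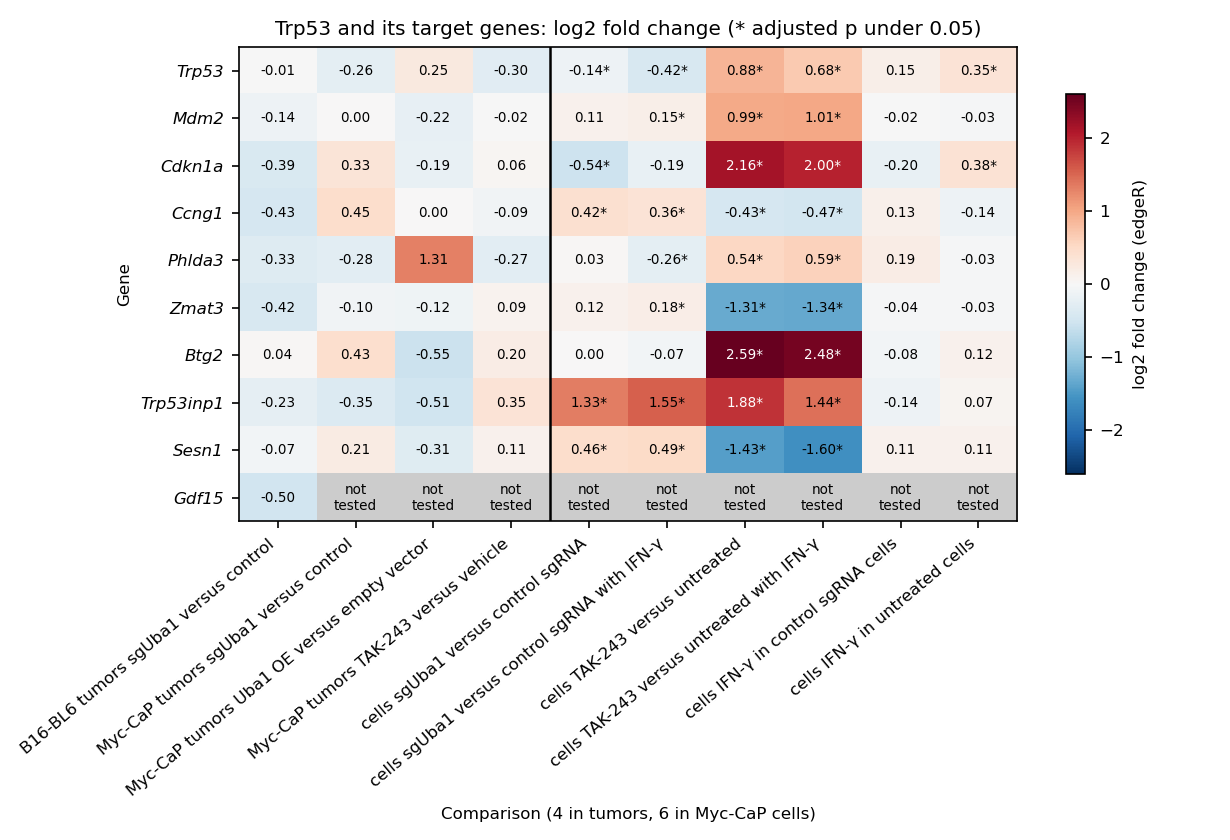
log2 fold change of each member (rows) in 4 tumor and 6 cell comparisons (columns), red for higher and blue for lower in the first-named group. Asterisks mark an adjusted p under 0.05 and grey cells a gene too low to be tested. No tumor column carries an asterisk, and the TAK-243 cell columns hold both the strongest reds (Btg2, Cdkn1a, Trp53inp1) and the strongest blues (Sesn1, Zmat3).

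TAK-243 split the p53 targets of Myc-CaP cells into genes that rose and genes that fell. All 9 members tested were called, 6 higher and 3 lower, where 66.3% of all 14551 genes were called in this comparison, 32.3% higher and 34% lower. With IFN-γ the count was the same, 6 higher and 3 lower, against 68.2% of all genes, 32% higher and 36.2% lower. With so many genes called, a member's call says little, and its size and direction carry the description. The median log2 fold change over the members was 0.88 (0.68 with IFN-γ) beside 0.03 (0.02) over all genes.

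Trp53 rose from 93.5 and 96.7 CPM in untreated cells to 178 and 171 CPM under TAK-243, 1.84-fold (log2 fold change 0.88, SE 0.0393, adjusted p = 3.62e-18). Its ligase Mdm2 rose from 55.2 and 51.6 CPM to 108 and 103 CPM, 1.98-fold (log2 fold change 0.99, SE 0.0531, adjusted p = 3.11e-16). For both genes the treated libraries lay above both untreated ones.

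Cdkn1a went from 16.9 and 13.8 CPM to 71.5 and 64.6 CPM, 4.46-fold (log2 fold change 2.16, SE 0.0864, adjusted p = 2.50e-19). Btg2, an antiproliferative gene that also answers to growth factors, went from 9.64 and 9.68 CPM to 59.9 and 56.2 CPM, 6.02-fold (log2 fold change 2.59, SE 0.0899, adjusted p = 7.90e-21). These were the largest rises among the members, and Cdkn1a ranked next to Btg2. Trp53inp1, a promoter of p53-dependent cell death and autophagy, rose from 2.55 and 3.43 CPM to 11.7 and 10.3 CPM, 3.68-fold (log2 fold change 1.88, SE 0.198, adjusted p = 1.21e-09). Phlda3, an inhibitor of Akt signalling, rose less, from 12.6 and 10.6 CPM to 17.9 and 15.7 CPM (log2 fold change 0.54, SE 0.118, adjusted p = 1.86e-04).

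The other targets went down in the same libraries. Sesn1, a sestrin that restrains mTORC1, fell from 34.2 and 38 CPM to 13.3 and 13.6 CPM (log2 fold change -1.43, SE 0.0980, adjusted p = 9.60e-14). Zmat3, an RNA-binding protein, fell from 66.6 and 68.2 CPM to 28.3 and 25.7 CPM (log2 fold change -1.31, SE 0.0745, adjusted p = 1.07e-15). Ccng1, cyclin G1, fell from 62.6 and 64.4 CPM to 47.4 and 46.5 CPM (log2 fold change -0.43, SE 0.0673, adjusted p = 1.47e-06). The treated libraries of these genes were all below the untreated ones. The fall of Zmat3 depended on the unit, since the log2 ratio of the group means was -1.32 in CPM but -0.69 in TPM, which weighs transcripts by their length. For Cdkn1a these were 2.15 and 2.09, and the 7 remaining members tested differed by less.

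Cdkn1a thus moved with Mdm2, Btg2, Trp53inp1 and Phlda3 and against Sesn1, Zmat3 and Ccng1. Its log2 fold change exceeded the median of the 7 other targets (0.54) by 1.62. Per library, its ratio to the other targets was higher in both treated libraries than in both untreated ones, except to Btg2 and Trp53inp1. The log2 ratio of Cdkn1a to Sesn1 was -1.02 and -1.45 in untreated cells and 2.42 and 2.23 with TAK-243, and that to Mdm2 -1.70 and -1.89 against -0.60 and -0.67. Only relative to Btg2 did Cdkn1a lose ground, with log2 ratios of 0.80 and 0.51 untreated and 0.25 and 0.20 treated, and relative to Trp53inp1 the treated values of 2.6 and 2.64 lay within the untreated 2.66 and 1.97.

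With IFN-γ present the same directions were found for all 9 members. Cdkn1a rose from 20.9 and 18.9 CPM to 78.7 and 79.9 CPM (log2 fold change 2, SE 0.0819, adjusted p = 4.00e-19), and Sesn1 fell from 41.1 and 36.9 CPM to 12.5 and 13.2 CPM (log2 fold change -1.60, SE 0.0974, adjusted p = 5.44e-15). Both shifts lay far outside the spread of the pairs of libraries. The difference between the TAK-243 effects with and without IFN-γ was called for 1 of the 9, Trp53, with a log2 difference of -0.20 (SE 0.0547, adjusted p = 0.0432), where 2.38% of all genes were called. That call ended with DESeq2 (adjusted p = 0.156), with RLE factors or library totals alone, and on leaving out any of the 8 libraries (adjusted p from 0.0701 to 0.43).

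**Figure D3:**
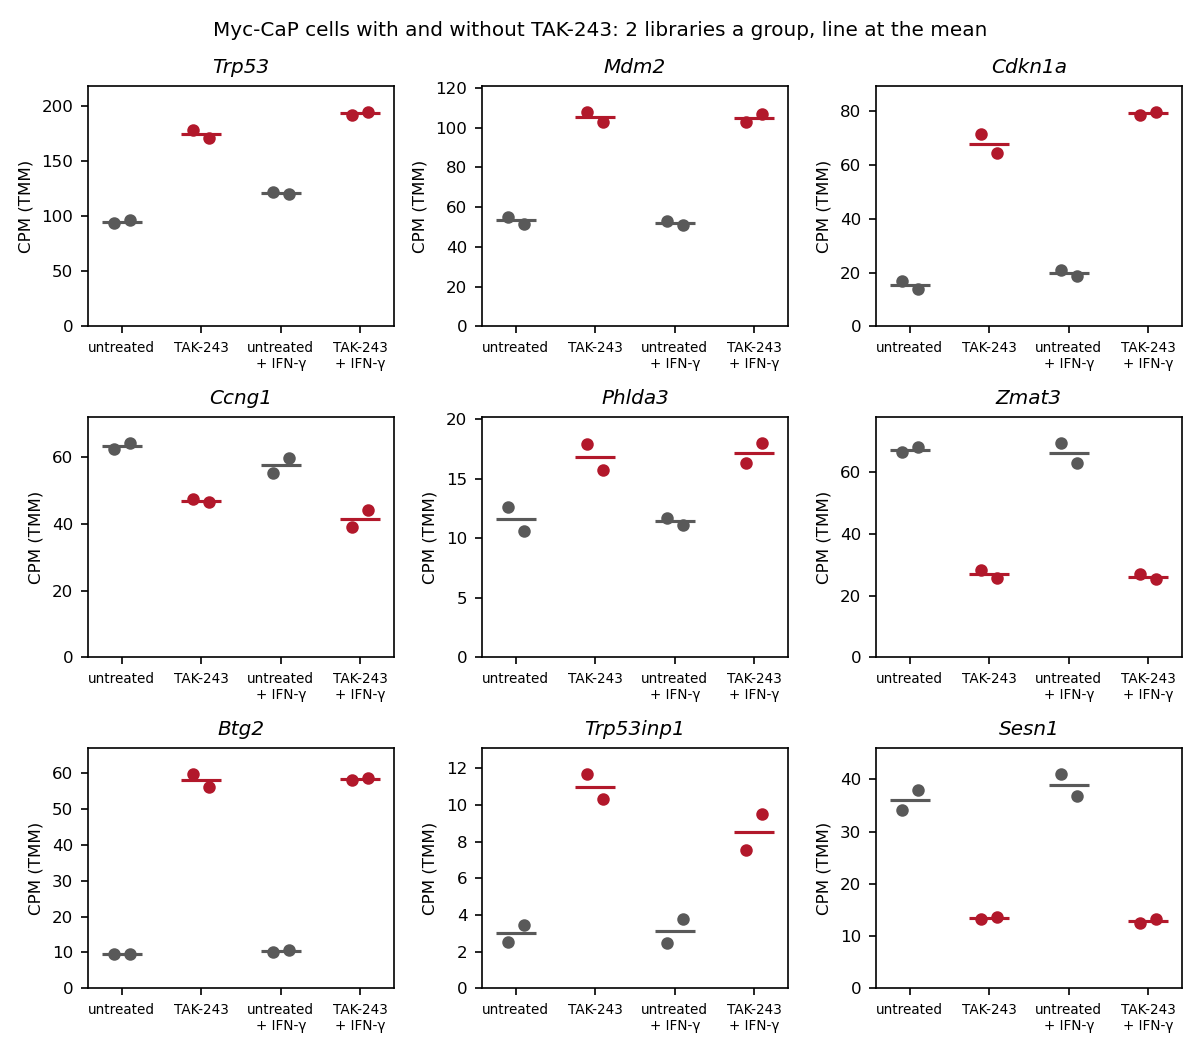
CPM of the 9 tested members in the 8 libraries of the TAK-243 experiment in Myc-CaP cells, points for libraries and lines for means (2 libraries a group, TMM scaling within the experiment). Trp53, Mdm2, Cdkn1a, Phlda3, Btg2 and Trp53inp1 are higher with TAK-243 (red) than without (grey), and Ccng1, Zmat3 and Sesn1 are lower, with and without IFN-γ.

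A wider list of 46 known p53 targets went both ways in the same cells. Of 42 tested, 13 were higher and 15 lower with TAK-243, which is 31% and 35.7% of the list beside the 32.3% and 34% of all genes, and their median log2 fold change was 0.03 beside 0.03 over all genes. The targets that act in cell death were led by the BH3-only genes Pmaip1 (Noxa, log2 fold change 2.50) and Bbc3 (Puma, 2) and by the receptor gene Eda2r (1.47), whereas Bid (-0.88), Ei24 (-0.86) and Pidd1 (-0.83) fell, 6 of 13 tested being higher and 5 lower. The cell cycle targets included Plk3, a stress-activated kinase (2.67), and Gadd45a (0.69) among 3 higher of 8, and Psrc1 (-0.95) as the 1 lower. Among DNA repair targets 4 of 6 were lower, led by the excision repair nuclease Ercc5 (-2.21) and by Ddb2 (-0.70), and Polk (0.88) was higher. In the metabolic and other group Epha2 rose (2.37), while the glutaminase Gls2 (-1.43), Sco2 (-0.88) and Aldh4a1 (-0.85) fell.

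Of the 18 genes that act on p53, 6 were higher and 6 lower, 33.3% each beside the 32.3% and 34% of all genes. The damage kinases Atr (log2 fold change -1.82) and Atm (-1.01) and the Mdm2 partner Mdm4 (-0.25, SE 0.0454) were lower, and Trp53bp1 (1.04) and the coactivator Ep300 (0.74) were higher. Cdkn2a, whose product Arf restrains Mdm2, was at 84.6 CPM with and 87.7 CPM without TAK-243 (log2 fold change -0.05, SE 0.0467, adjusted p = 0.323). Trp63 and Trp73, the p53 relatives, were too low to be tested here.

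Of the 6 other inhibitors of cyclin-dependent kinases, 5 were lower with TAK-243 and none higher, 83.3% of the list beside the 34% of all genes that were lower. They were Cdkn1c (p57, log2 fold change -2.97), Cdkn2c (p18, -0.99), Cdkn2d (p19, -0.90), Cdkn2b (p15, -0.78) and Cdkn1b (p27, -0.44). With IFN-γ all 6 were lower, Cdkn2a by -0.20. Among 16 genes of the G2/M phase that p21 can lower through the DREAM complex, 6 were higher, led by Cenpf (1.58) and Bub1 (0.87), and 7 lower, led by Ccnb2 (-1.45) and Ccna2 (-0.56), 37.5% and 43.8% beside the same shares of all genes. Genes of the integrated stress response, a translational stress program that runs through Atf4, included Ddit3 (Chop, log2 fold change 3.87, from 1.89 to 27.7 CPM on average), Atf3 (3.31) and Ppp1r15a (2.86) among 6 of 13 higher and Slc7a11 (-1.99), Psat1 (-0.66) and Asns (-0.57) among 6 lower, 46.2% each. Atf4 itself had a log2 fold change of 0.06 (SE 0.0319, adjusted p = 0.0960). The summed prostate epithelium markers moved in these libraries as well, from 4240 and 4280 CPM untreated to 2780 and 2790 CPM treated, and the part of that in the values above was not tested.

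In sgUba1 cells, which kept part of their Uba1, Cdkn1a was lower than in control sgRNA cells. The sgUba1 sublines were grown from single cells. Differences between sublines and the loss of Uba1 therefore cannot be told apart, here or in the sgUba1 tumors. Of 9 members, 5 were called, 3 higher and 2 lower, against 29.7% of all 15530 genes, 16.2% higher and 13.6% lower. With IFN-γ 7 were called, 5 higher and 2 lower, against 39.4% of all genes, 17% higher and 22.4% lower. The median log2 fold change over the members was 0.11 (0.15 with IFN-γ) beside 0.00 (0.01) over all genes.

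Cdkn1a was at 16.5 and 15.2 CPM in control sgRNA cells and at 11.6 and 10.2 CPM in sgUba1 cells, a log2 fold change of -0.54 (SE 0.0869, adjusted p = 7.57e-04). With IFN-γ it was at 13.6 and 14.0 CPM against 12.1 and 12.1 CPM, a log2 fold change of -0.19 (SE 0.0857) that missed the threshold (adjusted p = 0.106). The sgUba1 libraries were the lower ones in both settings, and the difference between the settings was not called (log2 difference 0.35, SE 0.122, adjusted p = 0.121). The control sgRNA libraries with IFN-γ were below those without it.

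None of the 7 other targets was called lower beside Cdkn1a without IFN-γ. Trp53inp1 rose from 0.664 and 0.555 CPM to 1.61 and 1.47 CPM (log2 fold change 1.33, SE 0.277, adjusted p = 0.00379), at 17 and 18 counts in the control libraries. Sesn1 rose from 18.2 and 17.2 CPM to 24.0 and 24.6 CPM (log2 fold change 0.46, SE 0.0671, adjusted p = 4.44e-04), and Ccng1 from 47.2 and 47.2 CPM to 62.1 and 64.5 CPM (log2 fold change 0.42, SE 0.0531, adjusted p = 1.63e-04). These groups did not overlap, and all 3 genes were called higher with IFN-γ too, by 1.55, 0.49 and 0.36 on the log2 scale. Scaled over all 51 libraries, Sesn1 was at 20.6 CPM in control sgRNA, 28.9 in sgUba1 and 40.9 in untreated cells. In that order Ccng1 was at 55.1, 75.2 and 72 CPM and Trp53inp1 at 0.712, 1.83 and 3.39 CPM. The sgUba1 means of Sesn1 and Trp53inp1 thus lay between the others, and that of Ccng1 near untreated cells. Cdkn1a (18.5, 12.9 and 17.4 CPM) was lowest with sgUba1. Untreated and sgRNA cells were not tested against each other. Btg2 was at 7.52 and 7.06 CPM against 6.85 and 7.67 CPM (log2 fold change 0.00, SE 0.106, adjusted p = 0.986). Its groups overlapped, as did those of Phlda3.

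Trp53 was slightly lower in sgUba1 cells, at 99.9 and 96.2 CPM against 110 and 106 CPM (log2 fold change -0.14, SE 0.0468, adjusted p = 0.0476), and more so with IFN-γ, at 90.7 and 89.2 CPM against 123 and 117 CPM (-0.42, SE 0.0466, adjusted p = 4.10e-05). The first of these calls ended under 7 of 10 alternatives in edgeR and DESeq2 (adjusted p from 0.0647 to 0.268), leaving out any of 3 of its 4 libraries among them. Mdm2 was at 60.8 and 60.7 CPM against 53.6 and 58.9 CPM (log2 fold change 0.11, SE 0.0546, adjusted p = 0.161). With IFN-γ the log2 fold changes of Mdm2 (0.15, adjusted p = 0.0470), Phlda3 (-0.26, adjusted p = 0.0417) and Zmat3 (0.18, adjusted p = 0.0190) passed narrowly in edgeR, and each lost its call without 1 control library (adjusted p = 0.171, 0.344 and 0.115 without control sgRNA with IFN-γ replicate 1). Of 10 alternatives in edgeR and DESeq2, 6 ended the call of Mdm2 (adjusted p from 0.0536 to 0.191), 6 that of Phlda3 (0.0516 to 0.344) and 2 that of Zmat3 (0.0949 and 0.115). The count of called members fell to 4 without that library. The difference of the sgUba1 effects with and without IFN-γ was called for Trp53 alone (log2 difference -0.28, SE 0.0660, adjusted p = 0.0418), where 4.64% of all genes were called, DESeq2 gave it an adjusted p of 0.0536, and the call ended on leaving out any of 6 of the 8 libraries (adjusted p from 0.135 to 0.325).

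**Figure D4:**
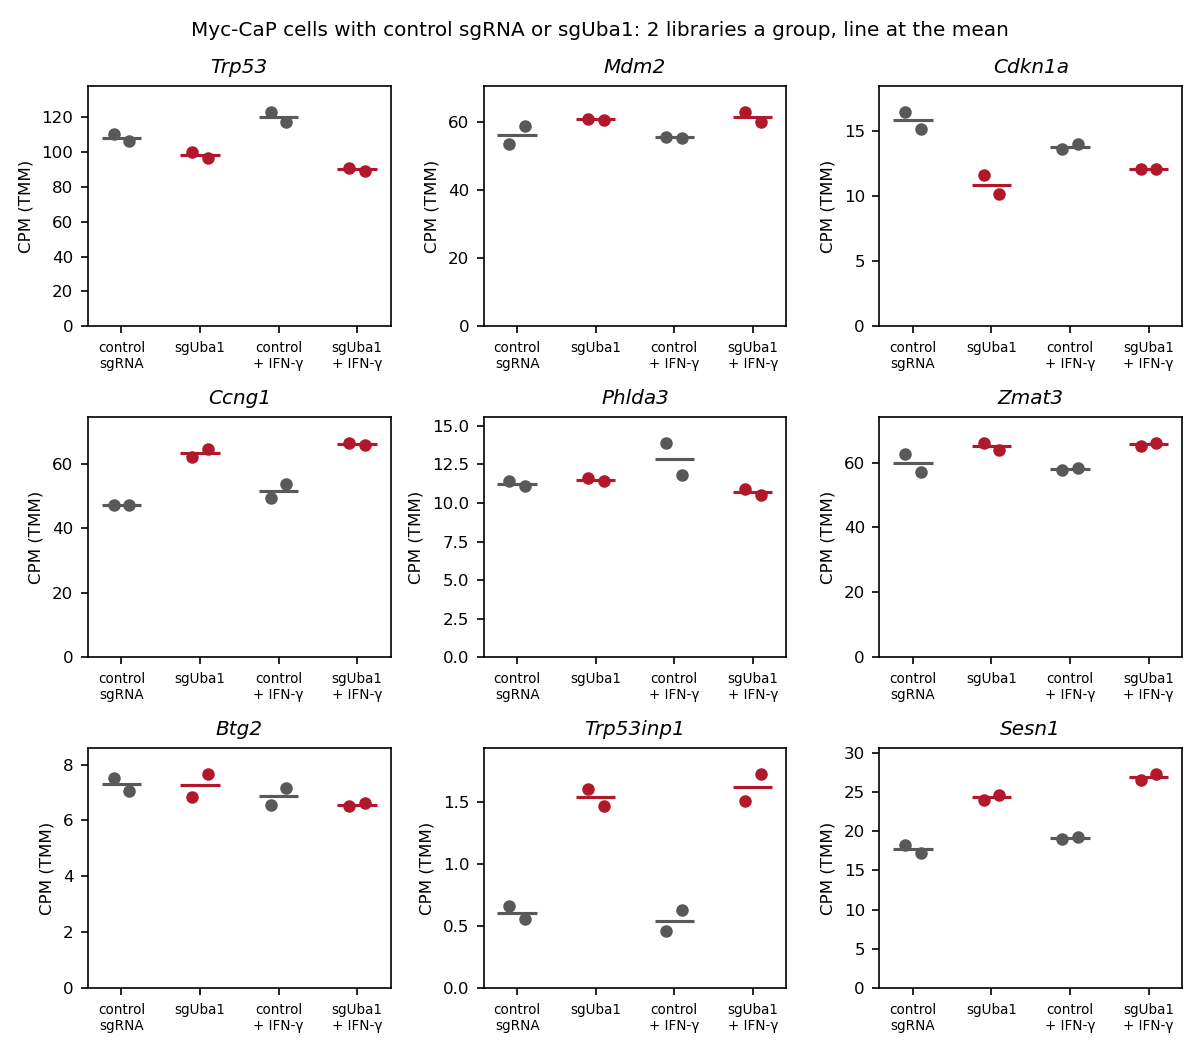
CPM of the 9 tested members in the 8 libraries of the sgUba1 experiment in Myc-CaP cells, points for libraries and lines for means (2 libraries a group, TMM scaling within the experiment). Cdkn1a is lower with sgUba1 (red) than with the control guide (grey), Ccng1, Trp53inp1 and Sesn1 are higher, and the red and grey points of Btg2 overlap without IFN-γ.

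In sgUba1 cells, of 42 other p53 targets, 9 were higher and 11 lower, 21.4% and 26.2% of the list beside 16.2% and 13.6% of all genes, with a median log2 fold change of 0.04. Eda2r (1.54), Perp (0.49) and Bid (0.37) rose among the cell death targets, and Plk3 (-0.77), Gadd45a (-0.54), Pidd1 (-0.49), Xpc (-0.43), Pltp (-1.21) and Ddit4 (-1.07) fell in theirs. Mdm4 was at 85.5 CPM against 88.9 CPM (log2 fold change -0.06, SE 0.0761), Cdkn2a at 74.5 CPM against 77.4 CPM (-0.05, SE 0.0745), and Ep300 was lower (-0.67). Among the other cyclin-dependent kinase inhibitors Cdkn2d was lower (-0.32) and Cdkn2c higher (0.15), 16.7% of the list each. Of the 16 G2/M genes, 8 were lower (50%), led by Mki67 (-0.45), Plk1 (-0.44) and Bub1b (-0.42), and 1 higher (6.25%, Ttk, 0.24). Of the 14 integrated stress response genes, 8 were lower (57.1%, beside the 13.6% of all genes) and none higher, with Chac1 (-1.98), Slc7a11 (-1.42) and Trib3 (-1.36) in front, Atf4 at -0.56 (SE 0.0439) and Ddit3 at -0.57 (SE 0.189).

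The effects of TAK-243 and of sgUba1 in cells were compared in 1 fit of both sets without IFN-γ, chosen after seeing the data, in which 54% of all genes differed. Of the 9 members, 8 differed. Cdkn1a differed by 2.69 on the log2 scale (SE 0.157, adjusted p = 1.08e-08), Btg2 by 2.58 (SE 0.146) and Trp53 by 1 (SE 0.0740), all higher with TAK-243. Sesn1 (-1.90, SE 0.128), Zmat3 (-1.45, SE 0.1) and Ccng1 (-0.87, SE 0.0834) differed the other way. Trp53inp1 was the member whose difference was not called (0.53, SE 0.355, adjusted p = 0.225). The perturbations differ in kind, an inhibitor for 18 hours against a stable clone.

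For IFN-γ alone, in untreated cells 2 of 9 members were called, both higher, where 29% of all genes were called, 19.6% higher. Trp53 rose from 93.5 and 96.7 CPM to 122 and 120 CPM (log2 fold change 0.35, SE 0.0409, adjusted p = 1.52e-07). Cdkn1a rose from 16.9 and 13.8 CPM to 20.9 and 18.9 CPM (log2 fold change 0.38, SE 0.103, adjusted p = 0.00607), a call that ended without untreated replicate 2 (adjusted p = 0.165) or untreated with IFN-γ replicate 1 (adjusted p = 0.0889). Ccng1 was called lower with library totals alone (log2 fold change -0.21, adjusted p = 0.014) and also with the 4 compared libraries alone. In control sgRNA cells edgeR called no member, against 3.88% of all genes, and DESeq2 called none. An unadjusted p under 0.05 was found for 3 of 9 members and for 3572 of 15530 genes. Trp53 there was at 123 and 117 CPM with and 110 and 106 CPM without IFN-γ (log2 fold change 0.15, SE 0.0466, adjusted p = 0.0854), and Cdkn1a had a log2 fold change of -0.20 (SE 0.0854, adjusted p = 0.189). Irf1, an interferon-response transcription factor, rose with IFN-γ in both sets (1.63 in untreated and 0.64 in control sgRNA cells).

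In tumors no member passed the test in any of the 4 experiments. In the B16-BL6 tumors edgeR called 0 of 10 members, where 0.724% of 17539 genes were called, 0.456% lower. Of the members, 5 had an unadjusted p under 0.05, all of them lower with sgUba1, as did 2861 of the 17539 genes in either direction. The median log2 fold change over the members was -0.28 beside 0.01 over all genes. Of the members 9 of 10 were below 0, while 9218 of the 17539 genes were above 0.

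Zmat3 was at 235, 203 and 201 CPM in B16-BL6 controls and at 177, 174, 141 and 145 CPM with sgUba1 (log2 fold change -0.42, SE 0.0987, adjusted p = 0.101). Ccng1 was at 214, 192 and 211 CPM against 169, 140, 127 and 174 CPM (log2 fold change -0.43, SE 0.110, adjusted p = 0.121). The groups of both genes did not overlap, and DESeq2 called both (adjusted p = 0.00438 and 0.00828). Of 13 alternatives, 12 left Zmat3 and 11 left Ccng1 uncalled. Cdkn1a was at 185, 159 and 177 CPM against 125, 124, 176 and 104 CPM (log2 fold change -0.39, SE 0.149, adjusted p = 0.250). The sgUba1 tumor replicate 3 lay among the controls, and without it edgeR called Cdkn1a (log2 fold change -0.57, adjusted p = 0.0348). Of 13 alternatives, 11 left Cdkn1a uncalled. Phlda3 was at 67.5, 61.4 and 54.4 CPM against 51.2, 46.8, 55.8 and 40.3 CPM (log2 fold change -0.33, SE 0.112, adjusted p = 0.201), and Mdm2 at 103, 105 and 99.7 CPM against 92.4, 90.0, 90.5 and 99.8 CPM (-0.14, SE 0.0602, adjusted p = 0.297). Trp53 was at 95.1, 95.2 and 98.7 CPM against 97.6, 100, 88.8 and 95.4 CPM (log2 fold change -0.01, SE 0.0611).

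Among the 46 other p53 targets, 4 of the 44 tested in B16-BL6 tumors were lower and none higher, 9.09% of the list beside 0.456% of all genes, with a median log2 fold change of -0.13. They were Psrc1 (-0.79, SE 0.103, adjusted p = 0.00826), Ak1 (-0.72, SE 0.0984, adjusted p = 0.00975), Xpc (-0.73, SE 0.117, adjusted p = 0.0241) and the death receptor gene Tnfrsf10b (-0.48, SE 0.0875, adjusted p = 0.0413). No gene of the regulator, other cyclin-dependent kinase inhibitor, G2/M or integrated stress response lists was called, and Mdm4 had a log2 fold change of 0.21 (SE 0.0876, adjusted p = 0.287). The summed leukocyte markers were at 145 to 179 CPM in the sgUba1 tumors and 89.7 to 147 CPM in the controls, and the melanocyte markers at 12500 to 14600 and 14300 to 16300 CPM. Whether these shifts took part in the values of the p53 targets was not tested, and in bulk tumors fewer cells of a type and less RNA per cell cannot be told apart.

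In the Myc-CaP sgUba1 tumors edgeR called 0 of 9 members with all 7 tumors, where 3.04% of 16202 genes were called, and DESeq2 called none. An unadjusted p under 0.05 was found for 1 member and for 3835 of the 16202 genes. Cdkn1a was at 42.0, 15.6 and 29.3 CPM in controls and had a lowest, median and highest value of 27.1, 35.9 and 49.3 CPM with sgUba1 (log2 fold change 0.33, SE 0.265, adjusted p = 0.482). The controls spread more widely than the sgUba1 tumors and overlapped them. Ccng1 was at 48.9, 56.4 and 42.9 CPM against 49.9, 72.3 and 82.5 CPM (lowest, median and highest, log2 fold change 0.45, SE 0.166, adjusted p = 0.137). Its 4 highest values, 72.3 to 82.5 CPM, were those of replicates 4 to 7, and with replicates 1 to 3 alone the log2 fold change was 0.17 (SE 0.135, adjusted p = 0.53). For Cdkn1a that fit gave 0.51 (SE 0.337, adjusted p = 0.454) and for Trp53 -0.09 (SE 0.0938), against -0.26 (SE 0.128, adjusted p = 0.244) with all 7. Only 1 gene of all, 0.00638%, was called with the 3 tumors, Uba1 itself having a log2 fold change of -0.69 (SE 0.0844, adjusted p = 0.0940). With all 7 tumors, 2 of 45 other p53 targets were called, Epha2 (-1.35, SE 0.297) and Bid (0.57, SE 0.118), and 2 of 14 integrated stress response genes, Slc7a11 (-1.40) and Psat1 (-0.97). With replicates 1 to 3 alone edgeR called none of the 4, at log2 fold changes of -1.61 for Epha2 (adjusted p = 0.131), 0.53 for Bid (0.157), -1.22 for Slc7a11 (0.094) and -0.93 for Psat1 (0.094), each with an unadjusted p under 0.05. The leukocyte marker sum was 307 to 490 CPM in sgUba1 tumors 1 to 3, 326 to 510 CPM in tumors 4 to 7 and 167 to 305 CPM in controls, and its part in these values was not tested.

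In Uba1 OE tumors edgeR called 0 of 9 members, where 0.0269% of 14853 genes were called. An unadjusted p under 0.05 was found for 2 members and for 2698 of the 14853 genes. Phlda3 stood out in size, at 3.61, 4.30 and 4.97 CPM with the empty vector and at 15.6, 10.6, 8.88 and 7.71 CPM with Uba1 OE (log2 fold change 1.31, SE 0.273, adjusted p = 0.123). The groups did not overlap, DESeq2 called the gene (adjusted p = 0.00230), and edgeR called it without Uba1 OE replicate 1, the highest tumor (log2 fold change 1.08, adjusted p = 0.0298). Of 13 alternatives, 11 left Phlda3 uncalled. Cdkn1a was at 43.3, 37.3 and 48.5 CPM against 32.3, 32.9, 46.8 and 38.3 CPM (log2 fold change -0.19, SE 0.156, adjusted p = 0.535), with overlapping groups. Sesn1 was at 64.4, 63.0 and 63.8 CPM against 42.7, 52.3, 47.4 and 63.3 CPM (-0.31, SE 0.132, adjusted p = 0.266). EdgeR called none of the 45 other p53 targets tested, 11 of which had an unadjusted p under 0.05. The prostate epithelium marker sum was 1310 to 2190 CPM with Uba1 OE and 2230 to 2530 CPM with the empty vector, the leukocyte sum 90.8 to 341 and 242 to 305 CPM, and the skeletal muscle sum 5.38 to 543 and 4.81 to 6.98 CPM. The part of these shifts in the values of Phlda3 and the other members was not tested.

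In tumors of mice given TAK-243 the members did not show the shifts seen in cells. EdgeR and DESeq2 both called 0 of 9, where edgeR called 0.145% of 17299 genes. An unadjusted p under 0.05 was found for 1 member and for 2587 of the 17299 genes. Cdkn1a was at 29.1, 39.1 and 45.4 CPM (lowest, median and highest) with vehicle and at 27.1, 35.3, 26.6, 54.7 and 59.5 CPM with TAK-243 (log2 fold change 0.06, SE 0.211, adjusted p = 0.909). The treated tumors included both the lowest and the highest values. Mdm2 was at 60.1, 64.5 and 68.0 CPM against 58.7, 62.3, 61.6, 69.5 and 65.3 CPM (log2 fold change -0.02, SE 0.0648), and Sesn1 at 62.2, 68.9 and 77.1 CPM against 76.0, 68.7, 72.6, 82.6 and 72.2 CPM (0.11, SE 0.0742). Trp53 was at 60, 71.0 and 87.5 CPM against 59.1, 63.1, 72.3, 44.0 and 56.1 CPM (log2 fold change -0.30, SE 0.125, adjusted p = 0.296). EdgeR called none of the 46 other p53 targets (10 had an unadjusted p under 0.05), and their median log2 fold change was -0.09 beside 0.01 over all genes. The prostate epithelium marker sum was 2670 to 3690 CPM with TAK-243 and 1720 to 2480 CPM with vehicle. The leukocyte sum was 161 to 305 CPM (median 299) against 143 to 217 CPM (median 191), and edgeR called the myeloid markers S100a8 (log2 fold change 3.63, adjusted p = 0.0107), S100a9 (4.03, adjusted p = 0.0107) and Itgam (0.82, adjusted p = 0.0488) higher. The keratinocyte sum reached 109 CPM in a TAK-243 tumor and at most 0.443 CPM with vehicle, and the part of these markers in the members' values was not tested.

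**Figure D5:**
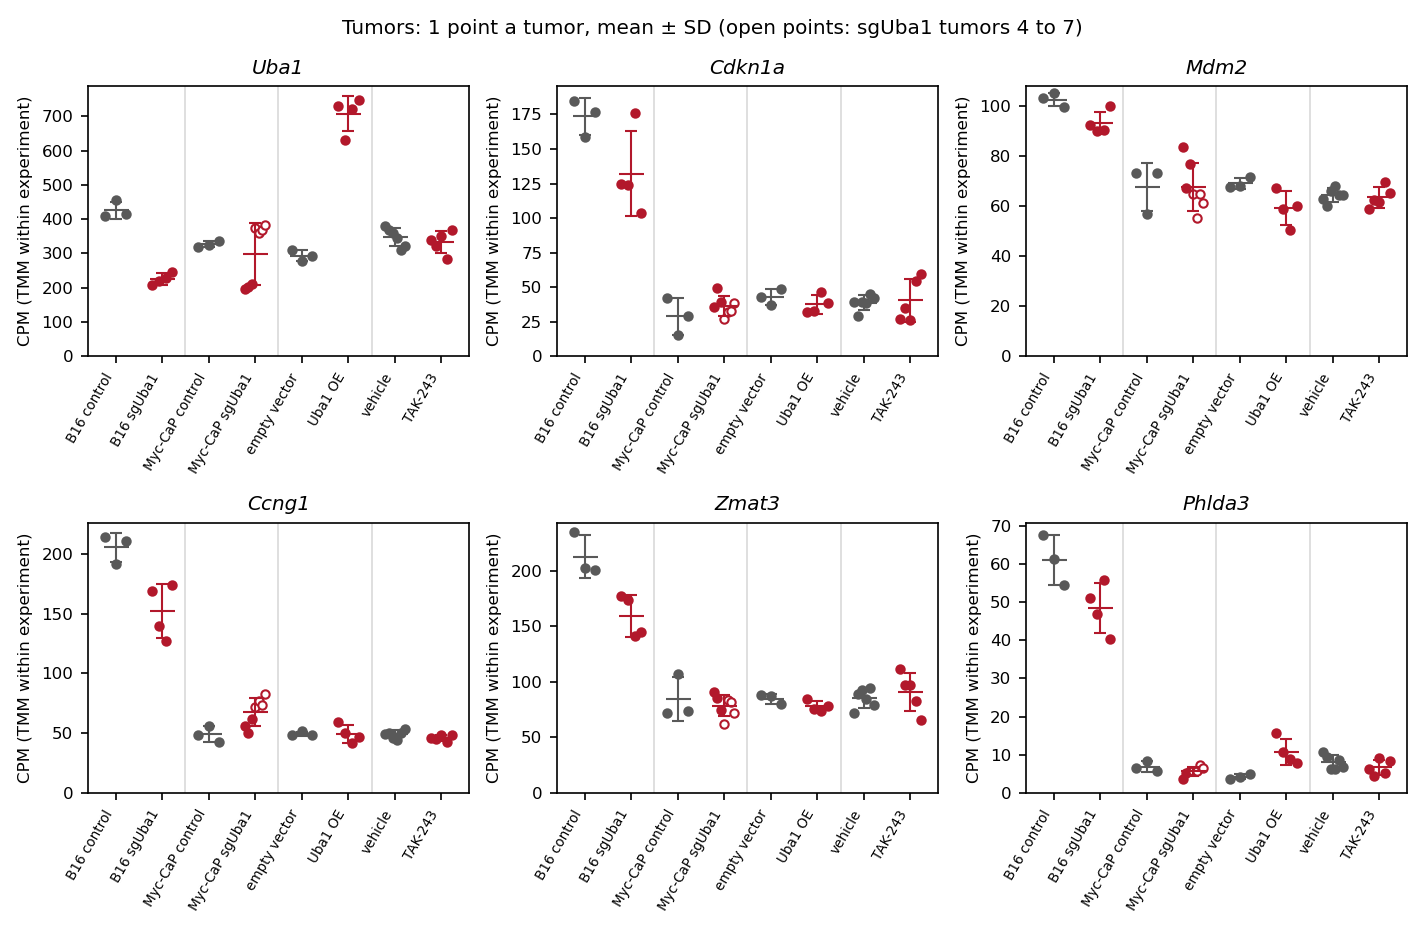
CPM of Uba1 and 5 members in the tumor groups, 1 point a tumor with mean and SD, TMM scaling within each experiment, so that levels compare within a pair of groups. Open points are the Myc-CaP sgUba1 tumors 4 to 7, whose Uba1 is above every control. Zmat3 and Ccng1 are lower in B16-BL6 sgUba1 tumors without overlap, Phlda3 is higher in Uba1 OE tumors, and Cdkn1a overlaps in every pair.

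The effects were set against each other in joint fits, chosen after seeing the data. TAK-243 moved 8 of the 10 members tested differently in cells and in tumors, where 29.1% of all genes differed. Cdkn1a rose more in cells by 2.09 on the log2 scale (SE 0.390, adjusted p = 8.57e-04), Mdm2 by 1 (SE 0.121, adjusted p = 2.36e-05), Btg2 by 2.38 (SE 0.542, adjusted p = 0.00362) and Trp53 by 1.17 (SE 0.225, adjusted p = 0.00108), while Sesn1 differed by -1.54 (SE 0.144, adjusted p = 2.84e-06). Gdf15, tested here on 0 to 15 counts, was not called (5.74, SE 2.1, adjusted p = 0.0545). Dose, time and exposure differ between culture and mice, and bulk tumors also hold host cells. The fibroblast marker sum was 544 to 1220 CPM in vehicle tumors and 22.7 to 24.5 CPM in untreated cells. Scaled over all 51 libraries, Btg2 averaged 101 CPM in vehicle tumors and 10.9 CPM in untreated cells, and Trp53inp1 29.6 and 3.39 CPM. Mdm2 started alike (60.3 and 60.5 CPM) and Trp53 lower in tumors (67.8 and 108 CPM). The part of host cells in these differences was not tested. The sgUba1 effects in B16-BL6 and Myc-CaP tumors were not called different for any member (1.52% of all genes were), the nearest being Ccng1, lower in B16-BL6 by 0.90 against Myc-CaP (difference -0.90, SE 0.223, adjusted p = 0.0551), and Cdkn1a had a difference of -0.73 (SE 0.348, adjusted p = 0.275). Without Myc-CaP sgUba1 replicates 4 to 7 the difference was -0.62 for Ccng1 (SE 0.181, adjusted p = 0.102) and -0.91 for Cdkn1a (SE 0.378, adjusted p = 0.23), and again no member was called (1.58% of all genes were). Between Myc-CaP sgUba1 tumors and sgUba1 cells no member differed at the threshold (0.0297% of all genes did). The nearest was Trp53inp1 (difference -1.64, SE 0.433, adjusted p = 0.21), and Cdkn1a had a difference of 0.91 (SE 0.442, adjusted p = 0.495). Without those 4 tumors the difference was -1.49 for Trp53inp1 (SE 0.422, adjusted p = 0.259) and 1.11 for Cdkn1a (SE 0.473, adjusted p = 0.405), and no member was called beside 0.116% of all genes.

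Whether Cdkn1a moved apart from each other target was tested in tumors on the log2 ratio of their CPM, with a two-sided exact permutation test over tumors. Of 29 tests (8 targets in B16-BL6 tumors and 7 in each Myc-CaP experiment), 1 had an unadjusted p under 0.05. No single test could have passed the Benjamini-Hochberg adjustment over the 29, which asks a p of 0.00172 of a lone test where the smallest possible was 0.00216, so no answer is drawn from the adjusted values. The 1 was Cdkn1a to Phlda3 in Uba1 OE tumors, with mean log2 ratios of 1.83 against 3.27 with the empty vector, a difference of -1.44 (exact p = 0.0286, the smallest that 3 against 4 tumors allow, adjusted p = 0.765). Most of that difference lay in Phlda3, whose log2 fold change was 1.31, beside -0.19 for Cdkn1a, whose groups overlapped. In Myc-CaP sgUba1 tumors the 7 ratios differed by -0.02 to 0.75 (lowest exact permutation p = 0.0917), and by 0.44 to 1.13 with tumors 1 to 3 alone, where the exact test cannot go below 0.1. In TAK-243 tumors, where the smallest p possible is 0.00216, the ratio to Mdm2 differed by 0.01 (exact permutation p = 0.957) and that to Trp53inp1 by -0.41 (exact p = 0.203). In B16-BL6 tumors the ratios to Ccng1 and Zmat3 differed by 0.03 and 0.01, close to 0, with exact permutation p = 0.914 and 1.

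Over the 16 group means, after subtracting each experiment's mean, Cdkn1a was most like Tigd5, Itpkc and Map3k6 (Pearson r = 0.985 each), Ap3b1 (0.983) and Sqstm1 (0.982) among 12493 genes. Of the members, Btg2 (r = 0.96, rank 66 among all genes) and Mdm2 (0.93, rank 334) were closest to it. Trp53inp1 (0.62, rank 3023) and Phlda3 (0.45, rank 4111) were less so, and Ccng1 (-0.51), Zmat3 and Sesn1 (-0.90 each) ran opposite. These correlations are a description of 16 points, and groups of the same experiment share their scaling and their subtracted mean. Cdkn1a moved most in the TAK-243 cell experiment (log2 fold changes 2.16 and 2), so that experiment weighs most in them. In sgUba1 cells Cdkn1a had a log2 fold change of -0.54, beside 0.11 for Mdm2 and 0.00 for Btg2.

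Depth differed between members in ways that bear on these values. Trp53inp1 had 14 to 62 counts a library in the sgUba1 cell experiment, and Phlda3 33 to 157 counts in the Uba1 OE tumors, whereas Trp53, Mdm2, Ccng1 and Zmat3 had 436 or more in all tumor libraries. Btg2 and Trp53inp1 were far higher in Myc-CaP control guide tumors than in control sgRNA cells. Btg2 was at 60.4 ± 18.4 TPM in these tumors (n = 3) and 4.17 ± 0.0856 TPM in the cells (n = 2), and Trp53inp1 at 11.9 ± 4.13 and 0.169 ± 0.0169 TPM. TAK-243 cells were nearer, with Btg2 at 65.2 to 69.8 CPM beside 66.8 to 127 CPM in the control guide tumors, all libraries scaled together. Trp53inp1 was at 11.9 to 13.6 CPM there beside 25.2 to 49.4 CPM. The control guide tumors also held leukocyte markers at 167 to 305 CPM against 5.6 to 6.24 CPM in the control sgRNA cells. Tumor and cell libraries were not tested against each other for level, and the part of host cells in it was not tested.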

How the data were processed

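Bulk RNA-seq of 35 tumors and 16 cell libraries was analysed. The authors deposited estimated counts and TPM per gene. Their processing notes name kallisto and the build mm10, and the version and settings are not given in the sources used here. The labels describe oligo(dT) selection and the methods ribosomal RNA depletion. Estimated counts were rounded to whole numbers. edgeR 4.0.16 in R 4.3.3 was used with TMM factors, its filter on low counts and the quasi-likelihood test, once per experiment. DESeq2 1.42.0 and limma 3.58.1 (log2 of TPM + 1) were alternatives, as were RLE factors, library totals alone, no filter, a replicate block, the compared libraries alone and leaving out each library. Differences between experiments came from joint fits, which like library totals alone were chosen after seeing the data. The members and lists were chosen with earlier results of these data known. From each other list, up to 3 genes that rose and 3 that fell were named per comparison, by size of log2 fold change among called genes whose average log2 CPM reached 1. Mdm4, Cdkn2a, Trp63, Trp73, Atf4, Ddit3, Irf1, the other cyclin-dependent kinase inhibitors and the 5 genes most like Cdkn1a were named outside that rule. They were not named in every comparison, and silence on them is not a result. Test code was tested on simulated data. Promoter sequences are RefSeq, GRCm38.p6. Depth limits precision for low genes such as Trp53inp1.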

Additional observations from a re-analysis of the deposited data

Results flagged for a closer look

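TAK-243 effects differed between cells and tumors by the joint test, as log2 differences (cells minus tumors), for Trp53 (1.17), Mdm2 (1), Cdkn1a (2.09), Ccng1 (-0.35), Zmat3 (-1.42), Btg2 (2.38), Trp53inp1 (1.52) and Sesn1 (-1.54). In that fit, which was chosen after seeing the data, 29.1% of all 18434 genes differed.

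For Trp53 the sgUba1 effect differed with IFN-γ by -0.28 and the TAK-243 effect by -0.2 on the log2 scale. Both calls were narrow (adjusted p = 0.0418 and 0.0432 in edgeR) and ended under 9 and 11 of 13 alternatives.

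Btg2 in vehicle tumor replicate 1 was at 59.7 CPM, apart from the nearest vehicle tumor at 105 CPM and the highest at 127 CPM. It was the 1 outlier among 50 groups of values tested, where chance gives 2.5.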

How the results depend on the processing

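The 9 calls in TAK-243 cells, with and without IFN-γ, held under every alternative run, as did the lower Cdkn1a in sgUba1 cells without IFN-γ, and no called result reversed. In B16-BL6 tumors the replicate block took Cdkn1a to -0.56 (adjusted p = 0.0488 in edgeR) and the called members from 0 to 1, since sgUba1 replicate 3, which has no control of its number, carries no weight in that fit. DESeq2 called 2. Leaving out 1 library there gave Cdkn1a -0.57 to -0.3 and 0 to 1 called members (Cdkn1a without sgUba1 replicate 3, Ccng1 without sgUba1 replicate 4). In Uba1 OE tumors DESeq2 called 1 member and leaving out 1 tumor gave 0 to 1. Called members numbered 4 to 6 without 1 library in sgUba1 cells with IFN-γ, 0 to 1 for IFN-γ in control sgRNA cells (Trp53, without control sgRNA replicate 1) and 1 to 2 in untreated cells, where Cdkn1a ran from 0.24 to 0.53. For the sgUba1 by IFN-γ and the TAK-243 by IFN-γ differences RLE factors, library totals alone and DESeq2 gave 0 called members, and leaving out 1 library gave 0 to 1 and 0. Library totals alone moved the median of all genes by -0.12 in TAK-243 cells. Replicate numbers did not pair the samples, since same-numbered samples correlated at -0.18 to 0.31 and no experiment had every correlation above 0.1. The block changed 1 other call, Mdm2 in sgUba1 cells with IFN-γ (adjusted p = 0.0552). The causes were not tested. Groups of 2 libraries and low counts of Trp53inp1 and Phlda3 limit these values.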
